A study of Mus musculus with 8 samples.

Results

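Peripheral myelin protein 22 (Pmp22), the epithelial membrane proteins Emp1, Emp2 and Emp3, and Perp make up a small family of tetraspan membrane proteins related to the claudins. Histone H3 acetylated at lysine 9 (H3K9ac), which marks active promoters, was followed at these genes in ileal epithelial cells of butyrate and vehicle mice. Members were taken by gene name, as every region of the deposited table annotated to any of the 5 genes. This gave 6 of 11251 regions, 2 at Emp1 and 1 at each of the other genes. The family was chosen by the butyrate minus vehicle difference at the Pmp22 region, which earlier fits of reads recovered from these data had called. Among them, limma's voom calls 16 of 11251 regions (0.142%), and 9 of 9048 (0.0995%) when run on regions of at least 25 mean reads. The difference at Pmp22 is therefore given as a description, without a test, while the other genes entered by family membership.

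The butyrate group had received 150 mM of butyrate for 7 days, and the control mice had received vehicle. All mice were wild-type C57Bl/6, and the cells were an epithelial preparation of the terminal ileum. Each group had 3 H3K9ac libraries, named S4 to S6 (butyrate) and S1 to S3 (vehicle) after the columns of the table. No source used here gives the route of dosing, the age of the mice or whether each library came from a mouse of its own, so p-values reflect library-to-library spread only, which may be technical. Values are RPKM, reads scaled to region length and effective library size. Each library had 1255251 to 1828591 reads in regions, with a median of 82 to 120 reads over regions. Of the 11 genes fixed as markers of intestinal epithelium, all had a region within 5 kb of their transcription start site (TSS), with a summed level of 50.8 to 57.4 RPKM in butyrate and 53.5 to 56.4 RPKM in vehicle libraries. Markers of other cell types had a region at 1 of 10 genes for fibroblasts and smooth muscle (Vim), 1 of 7 for glia and Schwann cells (Erbb3), 2 of 10 for leukocytes (Ptprc and Laptm5) and 0 of 6 for endothelium. Sox10, a transcription factor that defines glia and Schwann cells, had no region there. The level of Erbb3 was 5.24 to 6.89 RPKM in butyrate and 5.97 to 6.75 RPKM in vehicle libraries. Vim had 0.656 to 1.03 and 0.593 to 1.98 RPKM with butyrate and vehicle. Ptprc and Laptm5 summed to 1.76 to 3.06 and 1.66 to 2.30 RPKM. A change in the share of a cell type and a change of the mark within cells cannot be told apart in such bulk libraries.

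As background, PMP22 is a component of compact myelin and is also found at cell junctions of epithelia. In humans, an extra copy of the gene causes the demyelinating neuropathy Charcot-Marie-Tooth disease type 1A, and loss of a copy causes a neuropathy with pressure palsies. Transcription of Pmp22 starts at alternative promoters, an upstream promoter used in myelinating Schwann cells and a downstream promoter used in many other tissues. EMP1, EMP2 and EMP3 share the tetraspan fold, and EMP2 is known for acting on integrin trafficking and signalling. PERP is a target of p53 that takes part in cell death and is a component of desmosomes. Butyrate, which gut bacteria make from fibre, inhibits histone deacetylases.

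The Pmp22 region (chr11:63131251-63135427 as deposited, mm10) was 4176 bp long, longer than 95.4% of all regions. GENCODE release M21 annotates 5 starts of Pmp22, of which 4 lay inside the region. The most upstream start lay 2270 bp outside it, and no region of the table covered that start. The annotation of the table places the centre of the region in an intron, 536 bp past the nearest TSS. The Emp1 upstream region (chr6:135362239-135365731, 3492 bp) covered 4 of the 5 annotated starts of Emp1, and the Emp1 downstream region (chr6:135367537-135368037, 500 bp) began 45 bp past the fifth, which lies within the gene. The Perp region (chr10:18843796-18847329, 3533 bp) covered the only annotated Perp start. At Emp2 (chr16:10314158-10314658) and Emp3 (chr7:45921405-45921905) the regions were 500 bp long, were annotated as promoter in the deposited table and covered 0 of the GENCODE starts. The nearest Emp2 start was 191 bp away and the nearest Emp3 start 2 bp away. A RefSeq start of Emp3 did lie inside the region, near its edge. The length of 500 bp is the shortest in the table and was shared by 1725 regions.

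**Figure D1:**
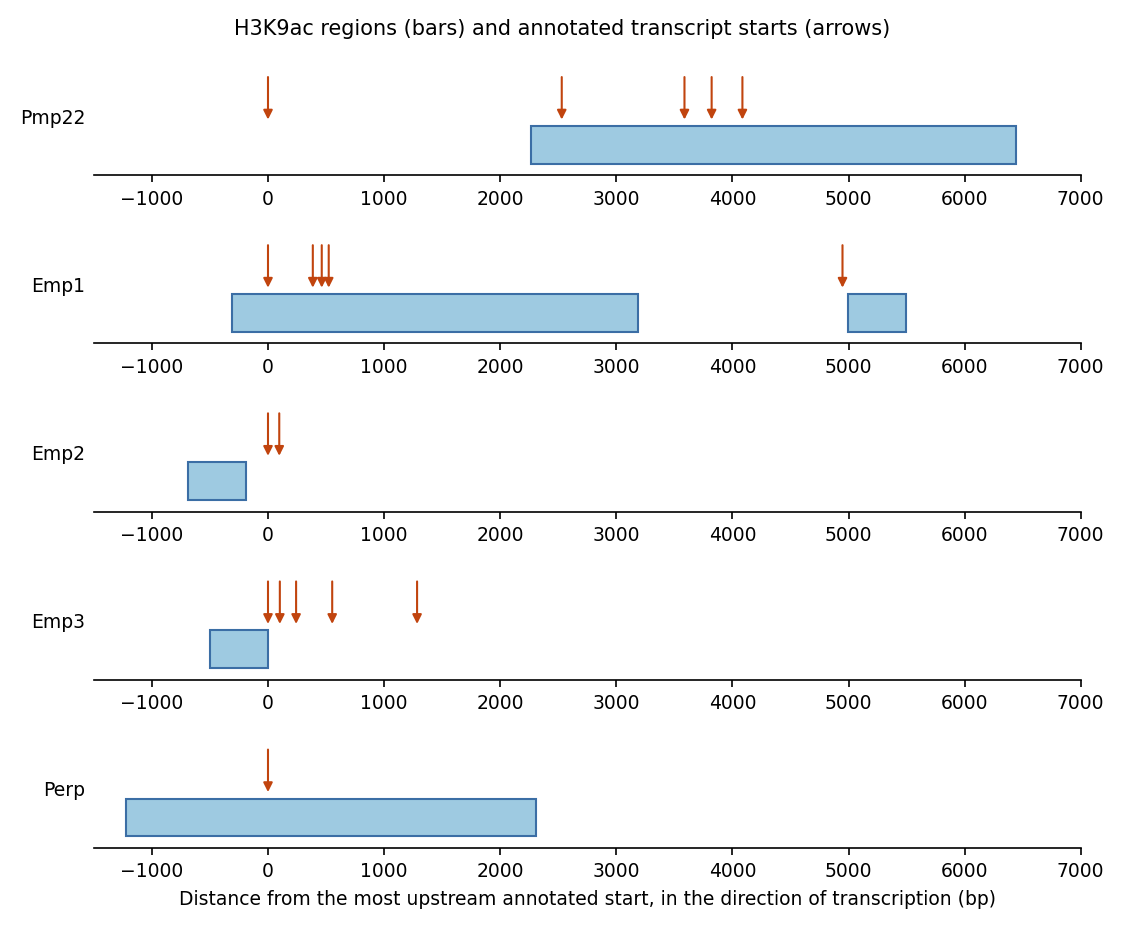
Position of the H3K9ac regions (bars) and of the GENCODE transcript starts (arrows) at the 5 genes, with the distance in bp from the most upstream start on the x axis. At Pmp22 the region covers 4 of 5 starts and leaves out the most upstream one, 2270 bp away.

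Sequences of the 250 bases before a start were read from RefSeq promoters (GRCm38.p6), which matched 4 of the 5 genes. Those shown contrast the Pmp22 start outside the region with the first RefSeq start within it, and give the promoters that overlap the weak Emp2 and Emp3 regions, by 60 bases at Emp2 and by all 250 at Emp3. Each is printed 5′ to 3′ on the strand of the gene, ending at the base before the start. Capitals mark every match, on either strand, to any of 6 motifs. The core promoter motifs searched were the TATA box with the letters TATAAA, the GC box with the letters GGGCGG and the CCAAT box, spelled as its name. Those of transcription factors were TGANTCA for AP-1, with N standing for any base, then GGAATG for factors of the TEAD family, and finally the EGR site, with the letters CGCCCACGC. The GC box and EGR letters can overlap.
Pmp22, start outside the region, chr11:63128732-63128981, plus strand: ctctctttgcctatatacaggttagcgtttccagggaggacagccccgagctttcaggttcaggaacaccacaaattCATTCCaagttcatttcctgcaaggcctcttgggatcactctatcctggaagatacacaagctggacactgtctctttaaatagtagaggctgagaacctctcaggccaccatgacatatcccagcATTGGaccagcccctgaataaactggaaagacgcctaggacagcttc
Pmp22, start inside the region, chr11:63131207-63131456, plus strand: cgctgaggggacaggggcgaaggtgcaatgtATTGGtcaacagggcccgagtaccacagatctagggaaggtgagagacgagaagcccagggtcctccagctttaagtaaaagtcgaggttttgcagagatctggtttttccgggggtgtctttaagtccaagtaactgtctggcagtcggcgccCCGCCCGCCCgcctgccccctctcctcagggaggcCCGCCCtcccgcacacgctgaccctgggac
Emp2, chr16:10313969-10314218, minus strand: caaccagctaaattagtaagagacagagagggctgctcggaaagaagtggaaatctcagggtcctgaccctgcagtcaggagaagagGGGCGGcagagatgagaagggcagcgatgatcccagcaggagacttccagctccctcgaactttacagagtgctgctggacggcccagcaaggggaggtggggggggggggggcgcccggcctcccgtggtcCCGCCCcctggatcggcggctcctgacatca
Emp3, chr7:45921427-45921676, minus strand: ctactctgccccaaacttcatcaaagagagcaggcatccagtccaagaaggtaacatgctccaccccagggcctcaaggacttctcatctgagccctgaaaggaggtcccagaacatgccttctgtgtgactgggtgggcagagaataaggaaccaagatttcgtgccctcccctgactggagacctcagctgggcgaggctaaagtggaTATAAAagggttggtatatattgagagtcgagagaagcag

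The Pmp22 promoters differed in composition. The one outside the region had 48.8% GC and 3 CpG dinucleotides, a TEAD match 173 bases before the start and a CCAAT box 47 bases before it. The first one inside had 61.2% GC and 14 CpG, with 3 GC boxes, of which a pair overlap, and a CCAAT box. Promoters of later RefSeq starts inside the region are not shown. They had 64.8% GC and 14 CpG with no motif match, and 73.6% GC and 27 CpG with 3 GC boxes and no CCAAT box. The median of all 32851 promoters was 52.4% GC and 6 CpG. A TEAD match was found in 12.6%, a GC box in 32.7% and a CCAAT box in 33.8% of them. Emp2 had 62.8% GC with 2 GC boxes, and Emp3 52.0% GC with a TATA box 40 bases before the start (12.4% of promoters hold one). The other RefSeq promoters of Emp3 and Emp1, at starts outside the regions, are not shown. They had 56.8% GC at Emp3 and 45.6% GC at Emp1, with no motif match. At the RefSeq start within the Emp1 upstream region the promoter overlaps an annotated exon, so only the sites are shown, as 27 bases each around the 2 AP-1 matches at 145 and 25 bases before the start. An AP-1 match was found in 6.75% of promoters, and an EGR match in 0.536% and in none of the 9 promoters of the family.
Emp1, chr6:135362776-135362802, plus strand: tctgtgtgtcTGAGTCAgagggagcta
Emp1, chr6:135362896-135362922, plus strand: aaatccagacTGATTCAtagaaactcc
Over the whole regions, GC content was 55.3% at Pmp22, 48.5% at Perp and 47.1% at Emp1 upstream, against a median of 52.2% over all regions. The observed over expected CpG ratio was 0.44 at Pmp22, 0.50 at Perp and 0.25 at Emp1 upstream, and it was 0.07 to 0.20 at the 500 bp regions, with a median of 0.59 over all regions.

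Acetylation levels spanned a wide range within the family. Over the 6 libraries the Pmp22 region averaged 4.51 ± 1.1 RPKM (SD), above 82.3% of all regions. Perp followed with 3.39 ± 0.31 RPKM, above 58.0% of regions, and Emp1 upstream with 2.24 ± 0.42 RPKM, above 29.4%. The 3 regions of 500 bp were near the floor of the table: Emp1 downstream had 0.972 ± 0.60 RPKM, Emp2 0.936 ± 0.42 RPKM and Emp3 0.825 ± 0.40 RPKM, on 8.83 to 10.3 reads per library. Neighbours in this order were compared with exact sign-flip permutation tests on log2(RPKM + 1), paired by library, whose smallest possible p is 0.0312 with 6 libraries. The order of the pairs comes from the same values. For Pmp22, whose values chose the family, no p is given: it was above Perp in 5 of 6 libraries, with a mean log2 difference of 0.31 ± 0.34 (SD). None of the other 4 pairs passed Benjamini-Hochberg adjustment over 5 pairs, which included the Pmp22 pair. A pair could pass only if most of the 5 pairs reached the smallest possible p. A failure to pass therefore says little about the order. Perp was above Emp1 upstream in 5 of 6 (0.44, exact p = 0.0625, adjusted p = 0.156). Emp1 upstream was above Emp1 downstream in 6 of 6 (0.77, exact p = 0.0312, adjusted p = 0.156). The order among the 3 weak regions was not resolved, with 3 of 6 libraries each way for both pairs (adjusted p = 1 for Emp1 downstream and Emp2, 0.781 for Emp2 and Emp3, exact tests).

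At Pmp22, the values were 4.03, 6.12 and 5.51 RPKM in butyrate libraries S4, S5 and S6, against 4.32, 3.39 and 3.68 RPKM in vehicle libraries S1, S2 and S3. These rest on 373, 458 and 518 reads with butyrate and 466, 253 and 318 with vehicle. Libraries S5 and S6 were above all vehicle libraries, whereas S4 lay below vehicle library S1, so the groups overlapped. The group means were 5.22 ± 1.1 RPKM with butyrate and 3.80 ± 0.48 RPKM with vehicle (SD, n = 3 each), a ratio of 1.37. The difference on the log2(RPKM + 1) scale was 0.36 ± 0.13 (SE). It was 0.51 without S4 and 0.26 without S5. Relative to the vehicle mean, S4 stood at 106%, S5 at 161% and S6 at 145%.

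**Figure D2:**
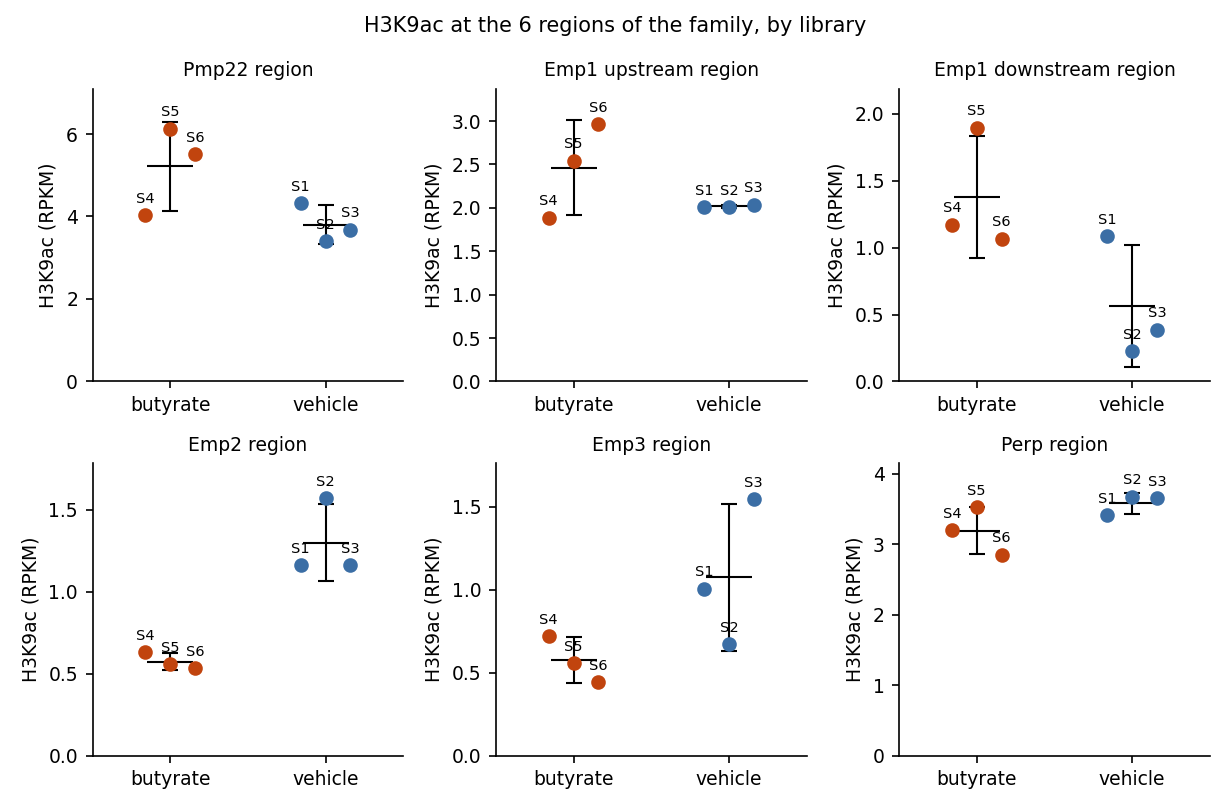
H3K9ac in RPKM (y axis) at the 6 regions, with a point for each library and the mean with its SD (n = 3 each) in black, butyrate left of vehicle. The groups overlap at 5 regions, and at Emp2 all butyrate libraries (0.533 to 0.631 RPKM) lie below all vehicle libraries (1.16 to 1.57 RPKM).

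The spread between libraries was large at Pmp22. It entered the fits that chose the gene and is given as a description. Its coefficient of variation was 20.7% over the butyrate and 12.5% over the vehicle libraries, where counting error alone at its mean of 398 reads gives 5.01%. Among the 1294 regions with a mean read number within 1.5-fold of that of Pmp22, the median coefficient was 7.04% in butyrate and 6.55% in vehicle libraries. Of these, 99.7% had a smaller coefficient than Pmp22 in butyrate and 89.5% in vehicle. Over the regions with at least 25 mean reads, the median absolute log2 gap of S4 was 0.138 to the other butyrate libraries and 0.138 to the vehicle libraries. The gap was 0.141 to butyrate and 0.151 to vehicle libraries for S5, and 0.137 to butyrate and 0.139 to vehicle libraries for S6.

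**Figure D3:**
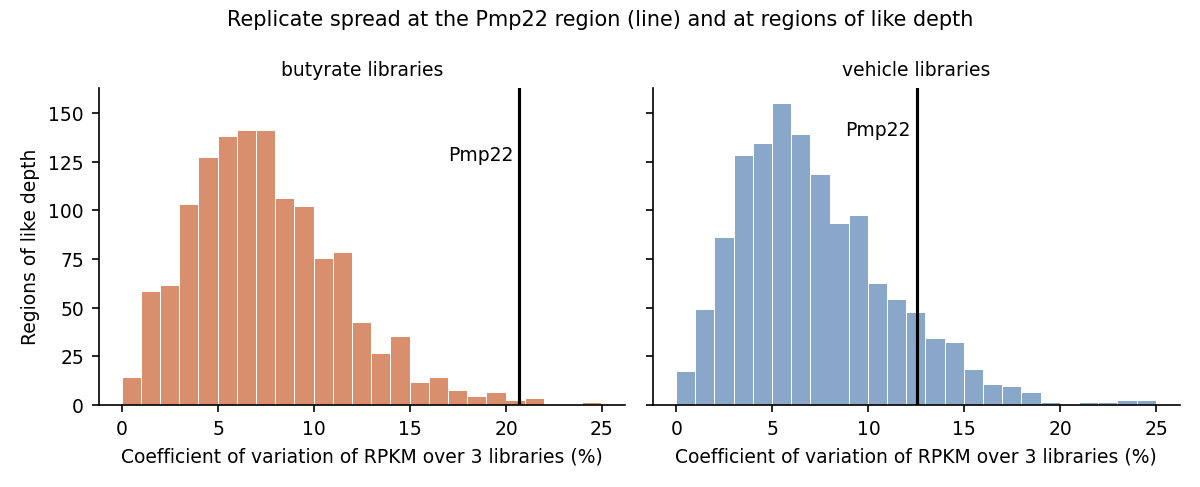
Number of regions of like depth (y axis) by their coefficient of variation of RPKM over 3 libraries in percent (x axis; the last bar holds all larger values), with butyrate on the left and vehicle on the right. The black line marks Pmp22, at 20.7% in butyrate and 12.5% in vehicle libraries.

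At the Emp1 upstream region, the butyrate libraries S4 to S6 had 1.88, 2.54 and 2.96 RPKM, against 2.01, 2.01 and 2.04 RPKM in vehicle libraries S1 to S3. As at Pmp22, S5 and S6 were above all vehicle libraries and S4 was not, here lying below all of them. The means were 2.46 ± 0.54 RPKM with butyrate and 2.02 ± 0.017 RPKM with vehicle (SD, n = 3 each). The difference on the log2(RPKM + 1) scale was 0.19 ± 0.14 (SE), with a 95% interval of -0.11 to 0.49, and did not pass (limma adjusted p = 0.779). It was 0.31 without S4 and 0.083 without S6. At Perp, the values were 3.20, 3.52 and 2.85 RPKM in S4 to S6 and 3.41, 3.68 and 3.66 RPKM in S1 to S3. The groups overlapped through S5. The means were 3.19 ± 0.34 RPKM with butyrate and 3.58 ± 0.15 RPKM with vehicle, a log2 difference of -0.13 ± 0.10 (SE), with an interval of -0.35 to 0.093 (limma adjusted p = 0.788). The difference was -0.071 without S6. In limma on log2(RPKM + 1), 0 of 10529 regions were called at an adjusted p of 0.05 (0%), and 765 (7.27%) had an unadjusted p under 0.05.

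The 3 weak regions had a mean RPKM under 1 and were left out of that fit, while 3 of the 6 regions of the family passed the filter. At Emp2 there were 7, 5 and 6 reads in butyrate libraries and 15, 14 and 12 in vehicle libraries, or 0.631, 0.558 and 0.533 RPKM against 1.16, 1.57 and 1.16 RPKM. All butyrate libraries were below all vehicle libraries, which held at 1 of the 6 regions of the family. Over all 11251 regions the groups did not overlap at 14.2% (7.35% with butyrate lower). Among the 824 regions under 12 mean reads they did not overlap at 26.8% (13.1% with butyrate lower). The ratio of means at Emp2 was 0.442. A ratio past 1.5-fold in either direction was found at 57.2% of regions under 12 mean reads, compared with 1.16% of regions with at least 25. At Emp3, the reads were 8, 5 and 5 in butyrate and 13, 6 and 16 in vehicle libraries, with 0.575 ± 0.14 and 1.08 ± 0.44 RPKM (SD, n = 3 each). The groups overlapped through S2, and the log2 difference given below was -0.22 without S3. At Emp1 downstream the direction was the other way, with 13, 17 and 12 reads in butyrate and 14, 2 and 4 in vehicle libraries, or 1.38 ± 0.45 and 0.565 ± 0.46 RPKM. Vehicle library S1 lay above S6 there. In the limma fit without the filter, the log2(RPKM + 1) differences were -0.54 ± 0.19 at Emp2 (adjusted p = 0.514), -0.38 ± 0.22 at Emp3 (adjusted p = 0.648) and 0.63 ± 0.24 at Emp1 downstream (adjusted p = 0.547), and none passed. The authors' deposited table gave a log2 fold change of -1.14 at Emp2 (FDR 0.326), -0.90 at Emp3 (FDR 0.596) and 1.16 at Emp1 downstream (FDR 0.399). It gave 0.29 at Emp1 upstream (FDR 0.561) and -0.17 at Perp (FDR 0.646). These fold changes are not on the log2(RPKM + 1) scale, which compresses fold changes at low RPKM, so the sizes cannot be compared directly.

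**Figure D4:**
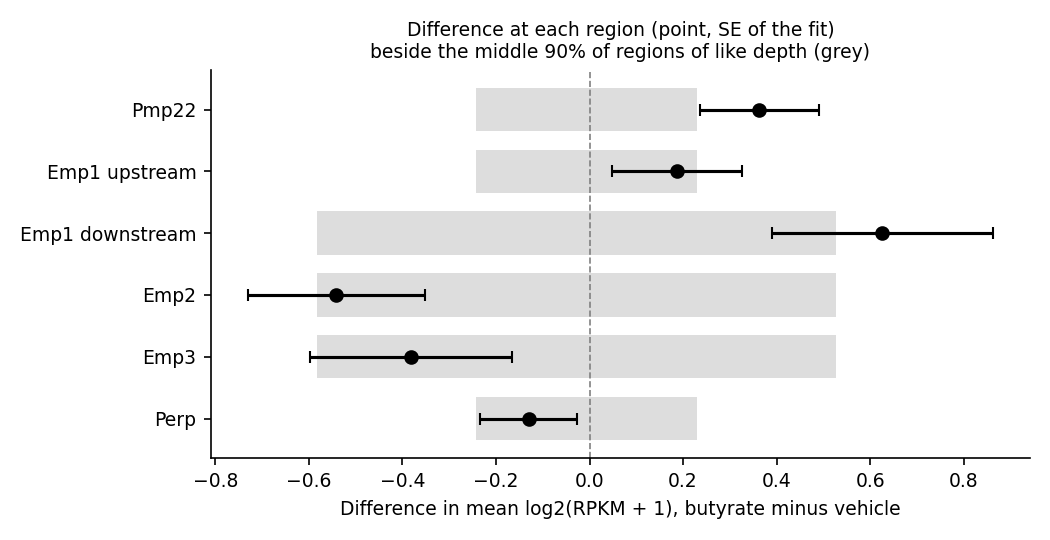
Difference in mean log2(RPKM + 1), butyrate minus vehicle (x axis), for each region (points, bars are the SE), beside the middle 90% of all regions with at least 25 mean reads or, for the 3 weak regions, under 12 mean reads (grey). Values run from -0.54 at Emp2 to 0.63 at Emp1 downstream, which lies above its grey range of -0.58 to 0.53.

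Regions with a profile over libraries most like that of Pmp22 were sought by Pearson's correlation of log2(RPKM + 1) over the 6 libraries, among 9047 regions with at least 25 mean reads. Among the 5 highest were Zranb2, an RNA-binding splicing protein (r = 0.99), Trim34a, a tripartite motif protein (0.98), Jmjd4, a lysyl hydroxylase (0.97), and Fam160a2 (0.97). A correlation over 0.9 was reached by 88 regions, and all values come from the same 6 libraries. At Zranb2 the values were 6.52, 8.23 and 8.04 RPKM in S4 to S6 and 7.02, 6.22 and 6.34 RPKM in S1 to S3. The likeness to Pmp22 is what chose these regions. Within the family the correlation with Pmp22 was 0.82 at Emp1 upstream, 0.85 at Emp1 downstream, -0.49 at Perp, -0.59 at Emp3 and -0.81 at Emp2. The Pmp22 profile holds the difference that chose the family, so these values are a description only. Those at Emp1 downstream, Emp2 and Emp3 rest on 8.83 to 10.3 reads per library. Of regions with at least 25 mean reads, 3.16% had a higher correlation than Emp1 upstream and 81.0% a higher one than Perp. Within 250 kb of the Pmp22 region the table held 1 other region, 80655 bp away and annotated to Tekt3, a tektin of sperm flagella. It had 0.395, 2.17 and 2.06 RPKM in butyrate and 1.12, 1.33 and 0.545 RPKM in vehicle libraries, on a mean of 21 reads per library (limma adjusted p = 0.849). S4 was the lowest butyrate library there, on 7 reads, as it was at Pmp22 and Emp1 upstream. At Emp2 and Emp3, S4 was the highest butyrate library, and at Perp and Emp1 downstream S6 was the lowest.

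Related genes were followed in 4 lists at 1 region per gene, and 0 genes of any list passed (limma, adjusted p under 0.05). Among claudins and other proteins with the claudin fold, 7 of 34 genes were measured, 1 above and 6 below 0, with a median log2 difference of -0.09. The median over all tested regions was 0.00, and 50% of them were above 0. The highest level was that of Cldn3, a tight junction protein, with 9.26 ± 0.61 RPKM in butyrate and 9.91 ± 0.58 RPKM in vehicle libraries (log2 difference -0.09 ± 0.07, SE). Cldn23 had 8.39 ± 0.47 and 8.96 ± 0.51 RPKM with butyrate and vehicle. Cldn12 had the smallest p of the list (4.03 ± 0.75 with butyrate and 4.53 ± 0.41 with vehicle, limma adjusted p = 0.786).

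Among genes for binding partners and trafficking, 17 of 20 were measured, 7 above and 10 below 0 (median -0.05). Jup, which encodes the desmosome and adherens junction protein plakoglobin, had 4.58, 5.27 and 5.07 RPKM in butyrate and 6.11, 5.57 and 5.85 RPKM in vehicle libraries. All butyrate libraries were below all vehicle libraries, and the difference of -0.20 ± 0.08 (SE) did not pass (limma adjusted p = 0.649). Cav1, which encodes the caveolae protein caveolin 1, was above in all butyrate libraries on 13.7 reads (1.58 ± 0.19 with butyrate and 1.03 ± 0.20 RPKM with vehicle, limma adjusted p = 0.703). Ocln, the tight junction protein occludin, and the kinase gene Src had the highest levels of the list, with log2 differences of -0.036 ± 0.074 (SE) at Ocln and -0.078 ± 0.069 at Src. At Src, too, all butyrate libraries were below all vehicle libraries. Among the 17 measured genes, the groups did not overlap at 1 with butyrate higher and at 2 with butyrate lower. Over all 11251 regions the groups did not overlap at 14.2% (7.35% with butyrate lower).

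Among regulators of these genes, 15 of 20 were measured, 8 above and 7 below 0 (median 0.01). The smallest p and the highest levels were those of Jun and Fos, the subunits of AP-1. Jun had 9.16, 9.23 and 9.22 RPKM in butyrate and 8.57, 7.18 and 7.59 RPKM in vehicle libraries, with no overlap and a difference of 0.22 ± 0.07 (SE, limma adjusted p = 0.572). Fos had a difference of 0.28 ± 0.07 (limma adjusted p = 0.492), also with no overlap. Egr1, an early growth response transcription factor gene named after its values were seen, had all butyrate libraries below all vehicle libraries. Its means were 4.32 ± 0.22 RPKM with butyrate and 4.83 ± 0.10 RPKM with vehicle (limma adjusted p = 0.75). Among the 15 measured genes, the groups did not overlap at 2 with butyrate higher and at 1 with butyrate lower. The share over all regions was 14.2% (7.35% with butyrate lower). Among genes of inherited neuropathy, most of them demyelinating, 7 of 14 were measured, 1 above and 6 below 0 (median -0.10). Mfn2, which encodes a mitochondrial fusion protein and is tied in humans to an axonal form, had 5.07 ± 0.17 RPKM with butyrate and 5.73 ± 0.35 RPKM with vehicle (limma adjusted p = 0.709), and Sbf2, a phosphatase-like protein, 3.55 ± 0.52 and 4.25 ± 0.39 RPKM (adjusted p = 0.704). Litaf, a protein of late endosomes, had the highest level of the list (6.54 ± 0.30 with butyrate and 7.11 ± 0.54 RPKM with vehicle). At Mfn2 all butyrate libraries were below all vehicle libraries, as at 7.35% of all regions. No other measured gene of the list had groups without overlap.

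**Figure D5:**
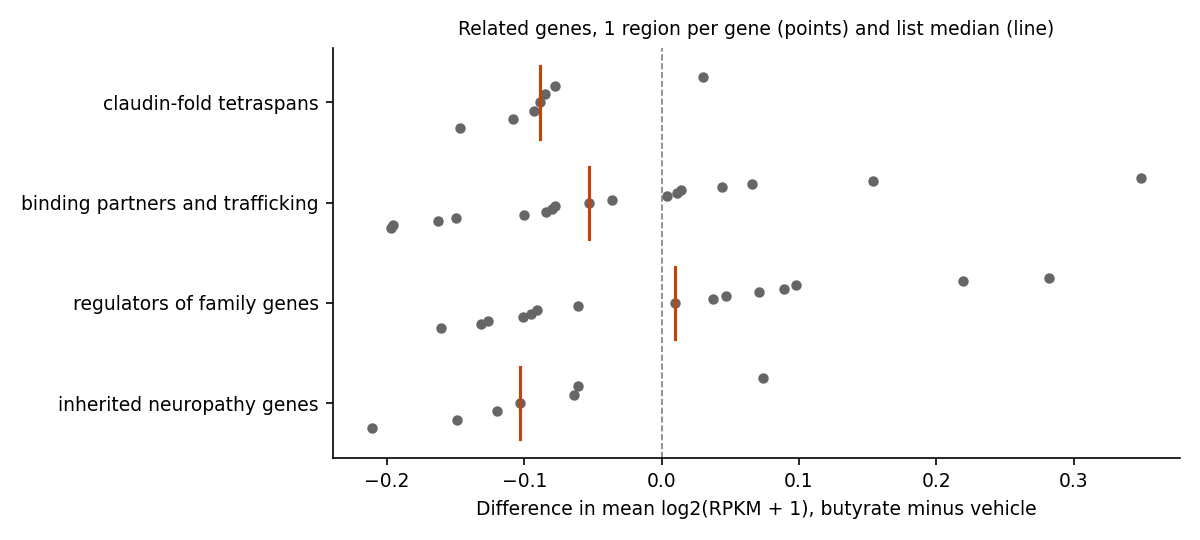
Difference in mean log2(RPKM + 1), butyrate minus vehicle (x axis), for each measured gene of the 4 related lists (points) with the median of each list (line). Medians run from -0.10 for the neuropathy genes to 0.01 for the regulators, and 0 genes passed.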

How the data were processed

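H3K9ac chromatin immunoprecipitation was sequenced in 3 butyrate and 3 vehicle libraries; the 2 input libraries were not analysed here. The build mm10 and the tools STAR, HOMER, Picard and edgeR, run by the authors, are named in the submitters' processing notes without versions. No source used here states the peak calling and counting settings. The authors deposited RPKM per library, per the file headers, with mean RPKM per group and a log2 fold change, p-value and FDR per region. Column names gave the group of a library and no replicate number. Deposited coordinates are printed unchanged, and lengths are end minus start.

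RPKM multiplied by region length came in whole multiples of a step that was estimated for each library, within a tolerance of 0.01 reads for 100% of values. The multiples served as reads per region, and the step gave the effective library size. Reads in regions were 7.00% to 7.09% of the effective library size in every library. This scaling makes every difference relative to the other regions. The main test was limma 3.58.1 (R 4.3.3) on log2(RPKM + 1), with trend and robust empirical Bayes, on regions with a mean RPKM of at least 1 (722 left out) and with Benjamini-Hochberg adjustment over the whole table at 0.05. This scale compresses fold changes at low RPKM. Levels were compared with exact sign-flip tests. GENCODE M21 and RefSeq GRCm38.p6 gave starts and sequences.

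Members, lists and tests were chosen with earlier results of these data known. Named genes were all member regions, regions within 250 kb of Pmp22, the 5 regions most correlated with Pmp22 (1 is not reported here), and from each related list the 2 genes with the smallest p and the 2 with the highest level. Alternatives covered pseudocount, filter, scaling, voom on recovered reads, threshold, choice of region and leaving out each library.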

Additional observations from a re-analysis of the deposited data

How the results depend on the processing

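The number of regions called, 0 by limma on log2(RPKM + 1), was 16 with voom on all regions and 9 with voom on at least 25 mean reads, and 0 under each other alternative. The cause was not tested. Differences at Emp1 upstream and Perp kept their sign under every alternative run and passed under none. Those at the weak regions also kept their sign in every alternative that included them. The difference at Pmp22 kept its sign too, but it chose the family, so this is a description only. The weak regions moved with the scale: Emp1 downstream had 1.33 with a pseudocount of 0.1 and 1.29 with voom on all regions; Emp2 had -0.74 with a pseudocount of 0.5, -1.04 with 0.1 and -1.08 with voom; Emp3 had -0.75 with a pseudocount of 0.1 and -0.82 with voom. A smaller pseudocount shrinks low values less by its construction. Without 1 library at a time, the level difference of Emp1 downstream over Emp2 ran from -0.18 to 0.21 and that of Emp2 over Emp3 from -0.024 to 0.15, changing sign without S1, S2 or S3 at the pair of Emp1 downstream and Emp2 and without S2 at the other. With 5 libraries these exact tests cannot pass. Counted over all regions that carry a gene's name, 2 of 8 regions of the neuropathy genes were above 0. The counts were 8 of 18 for binding partners and trafficking, 10 of 19 for regulators and 1 of 7 for claudin-fold genes. The share over all tested regions was 50%. A minimum mean RPKM of 2 and voom on at least 25 reads left out the weak regions. No paired analysis was possible because the columns carry no replicate numbers. At under 12 reads per library, counting error (31.9% at Emp2) limits the weak regions.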

Other observations

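At Emp1 upstream the 3 vehicle libraries were close to each other, with a coefficient of variation of 0.835% where 165 reads per library give 7.78%. Of 3448 regions of like depth, 0.725% had a smaller coefficient in vehicle libraries. In the butyrate libraries the coefficient at the same region was 22.1%, larger than at 96.3% of those regions. At Emp2 the butyrate libraries, on 7, 5 and 6 reads, had a coefficient of 8.85%. Counting error at the mean of 9.83 reads over all 6 libraries gives 31.9%, and it is larger at fewer reads. Of the 1229 regions of like depth, 4.72% had a smaller coefficient in butyrate libraries. No test of these spreads was made.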
